A study of Mus musculus with 4 samples.

Results

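Conventional CD4 T cells, here the CD4+ T cells in which no Foxp3 RNA was counted, were examined in 4 single-cell RNA libraries of subcutaneous Pan02 tumours, a mouse pancreatic adenocarcinoma line grown in C57BL/6 mice. The cells were chosen from their counts of unique molecular identifiers (UMIs), each standing for 1 captured RNA molecule. Barcodes with fewer than 200 genes, or with more than 20% of their UMIs from mitochondrial genes, were dropped. A remaining cell was taken when it held at least 1 UMI of Cd3d, Cd3e or Cd3g and at least 1 UMI of Cd4. It held no UMI of Foxp3, Cd8a, Cd8b1 or Trdc, at most 2 UMIs of C1qa, C1qb and C1qc together, and fewer than 2 UMIs of the cell cycle genes Mki67, Top2a, Cdk1 and Birc5 together. This gave 1012 cells of the 63443 that passed the gene and mitochondrial limits, out of 68102 barcodes. There were 122 such cells in the anti-PD-1 library, 201 in the anti-LIF library, 233 in the combo library and 456 in the control library.

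CD4 helper T cells read peptides presented on MHC class II and act mainly through the cytokines and surface ligands they make. Naive and memory cells circulate with the lymph node exit receptor S1pr1 and the survival receptor Il7r under the transcription factors Klf2 and Tcf7, whereas cells in contact with antigen take on effector programmes, inhibitory receptors and, in some tumours, killer cell genes. PD-1, encoded by Pdcd1, is an inhibitory receptor of activated T cells. LIF is a cytokine of the IL-6 family that signals through Lifr and the shared receptor chain Il6st to STAT3, whose target Socs3 feeds back on the receptor.

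The study asked how antibodies against PD-1 and LIF, alone and together, alter these tumours. The 4 groups were anti-PD-1, anti-LIF, both antibodies together (combo) and control IgG, all in female C57BL/6 mice of 6 to 7 weeks with tumours on the right flank that had reached about 50 mm3 at grouping. The protocol names intraperitoneal dosing 3 times a week with 200 µg of anti-PD-1 and 25 mg/kg of IgG or anti-LIF. Each group is 1 library, in which 3 samples were combined per the labels, and the files do not separate them. The model is a cell line implanted under the skin, not a tumour arising in the pancreas.

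The libraries held 67503066 UMIs with anti-PD-1, 57720774 with anti-LIF, 94984486 with combo and 111164731 in control. The conventional CD4 T cells were shallow and of like depth, with a median of 1458, 1330 and 1544 UMIs per cell in the anti-PD-1, anti-LIF and combo libraries and 1464 UMIs in control. Their summed RNA was 276386, 399679, 542009 and 936806 UMIs in the same order. The control library stood apart in its makeup. Cells of at least 3 C1q UMIs and no Cd3d, Cd3e or Cd3g UMI (macrophages) numbered 545 there against 3653 to 4244 in the other libraries. CD8 T cells numbered 4453 in control against 447 to 1066. Between 277 and 392 barcode sequences recurred in each pair of libraries, and none of them was a conventional CD4 T cell in both. With 1 library per group, no difference between treatments has a replicate check. Every interval given for them is a 95% interval for counting error only, and UMI counts from few cells are less certain than it shows.

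The gate was checked against the markers of the cell type. Cd4 and Cd3 RNA were required by the rule and are no check. Trac, the T cell receptor alpha constant chain, had a UMI in 88.5%, 78.1% and 86.3% of the cells with anti-PD-1, anti-LIF and combo and in 78.5% in control, against 0.600% to 3.85% of up to 1500 macrophages per library, which were deeper in every library (medians of 2058, 2147 and 3666 UMIs with anti-PD-1, anti-LIF and combo and 3146 UMIs in control). Icos, a costimulatory receptor, had a UMI in 69.7%, 64.7% and 75.5% of the cells with treatment and 63.8% in control, against 0.667% to 1.101% of macrophages. Most of the cells thus carried the markers beyond the level of free RNA in macrophages. At the edges of the gate, 473 members had a single Cd4 UMI and 539 had more, while 2374 cells that met every other condition had no Cd4 UMI. A further 140 cells stood outside for a single Foxp3 UMI and 49 for a single Cd8 UMI, and 28 for 2 cell cycle UMIs, and 117 members had 1 cell cycle UMI.

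Part of the members carried RNA of other cells. A clustering of the 1012 cells is described after the shares. Its clusters 6 to 9 held 93 cells, 9.19% of the members, but 31.4% of their UMIs. All of them but cluster 8 were led by genes of myeloid, stromal or endothelial cells. Cluster 8 (19 cells) was led by Enpp2, Spp1, Cp and Igf2 and was not given a cell type. Levels are given in CPM, that is UMIs per 1000000 summed UMIs. Trac was counted at 155 to 764 CPM in clusters 6 to 9 and at 1129 to 1846 CPM in clusters 0 to 5. Clusters 6 to 9 held 26.5%, 34.6% and 37.7% of the members' UMIs with anti-PD-1, anti-LIF and combo and 27.7% in control. The 9 fibroblast and pericyte genes summed to 10485, 18192 and 35887 CPM with anti-PD-1, anti-LIF and combo and to 7409 CPM in control over all members. In clusters 0 to 5 the same genes summed to 862, 1235 and 1682 CPM with treatment and 662 CPM in control. Values are therefore given over all members and, where it matters, over the 919 cells of clusters 0 to 5, a choice made after the data were seen. Doublets were not removed, and their part in these clusters was not tested.

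Conventional CD4 T cells were a small share of each tumour's kept cells and, over all members, lowest with anti-PD-1. They made up 0.848% (95% exact binomial interval 0.704% to 1.011%) with anti-PD-1, 1.43% (1.24% to 1.65%) with anti-LIF and 1.42% (1.25% to 1.61%) with combo, against 2.45% (2.23% to 2.68%) in control. The log2 ratio to control was -1.53 (-1.83 to -1.24) with anti-PD-1, -0.77 (-1.02 to -0.53) with anti-LIF and -0.78 (-1.02 to -0.55) with combo. All 3 treated libraries held a smaller share than control, and did so under each of the 8 other settings tried. Which of them was lowest depended on the members kept. Members with any UMI of 8 genes of other cell types were left out in another setting, with the denominator unfiltered. The ratio was then -1.88 with combo and -1.74 with anti-PD-1.

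Counted among T cells the order was different. Of the 11518 CD3+ cells within the same C1q and cell cycle limits, conventional CD4 T cells were 6.87% (5.74% to 8.15%) with anti-PD-1, 16.8% (14.7% to 19.0%) with anti-LIF and 15.02% (13.3% to 16.9%) with combo, against 6.52% (5.95% to 7.12%) in control. The log2 ratio to control was 0.08 (-0.22 to 0.37) with anti-PD-1, 1.36 (1.12 to 1.61) with anti-LIF and 1.20 (0.97 to 1.44) with combo. The anti-PD-1 library thus lay within counting error of control on this scale and the other 2 lay above it. Against the single antibodies the combo share was higher than with anti-PD-1 by 1.13 (0.81 to 1.46) and within counting error of anti-LIF at -0.16 (-0.44 to 0.12). The combo value depended on which members were kept. It was 0.11 once members with any UMI of 8 genes of other cell types were left out, and the anti-LIF value was then 0.81. The CD3+ cells of the denominator were not filtered, and the shares were then 5.43% with anti-LIF, 3.35% with combo and 3.10% in control. These values thus also count how many members of each library carried such RNA. CD8 T cells differed beside these shares: there were 8.74, 2.22 and 2.51 CD8 T cells per conventional CD4 T cell with anti-PD-1, anti-LIF and combo and 9.77 in control.

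The ratio of conventional CD4 T cells to Foxp3+ regulatory T cells (Treg), taken by the same gate with at least 1 Foxp3 UMI, was 2.10 with anti-PD-1, 3.94 with anti-LIF, 1.96 with combo and 4.30 in control. These ratios rest on 58, 51 and 119 Treg with treatment and 106 in control, and a Treg in which Foxp3 RNA was missed counts as conventional. Dividing CD4 cells, which met the gate but for at least 2 cell cycle UMIs, numbered 12, 14 and 14 with anti-PD-1, anti-LIF and combo and 53 in control. They were 8.96%, 6.51% and 5.67% of dividing and non-dividing cells together with treatment and 10.4% in control.

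**Figure D1:**
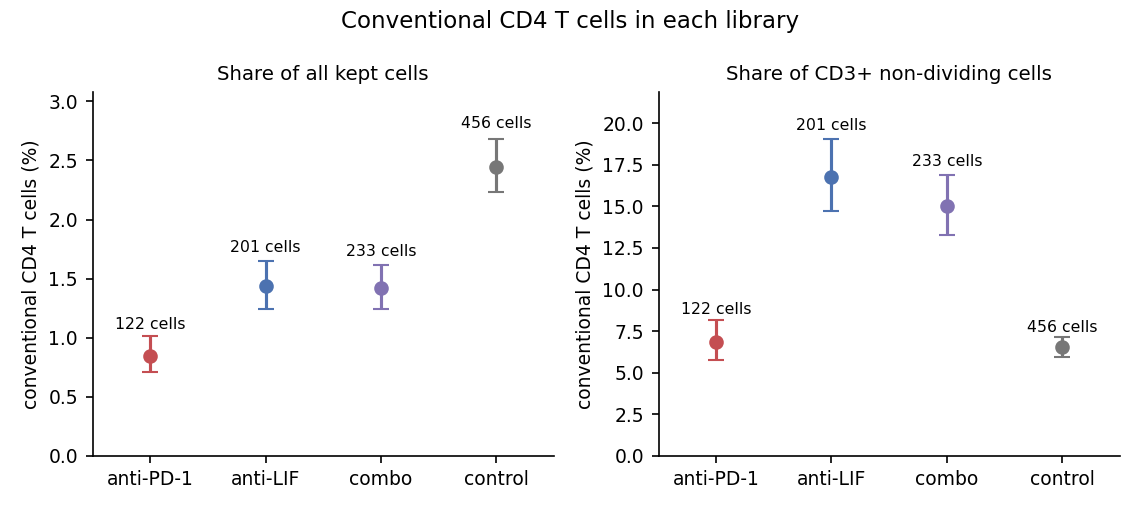
Share of conventional CD4 T cells, in percent, among all kept cells (left) and among CD3+ non-dividing cells (right) in the anti-PD-1, anti-LIF, combo and control libraries, 1 library each. Error bars are exact 95% binomial intervals for counting error; among kept cells the highest share is the 2.45% of control, and among CD3+ cells the highest is the 16.8% of anti-LIF.

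Leiden clustering of the 1012 cells, with the gate genes left out of the variable genes, gave 10 clusters, which are described by their leading genes and not tested. Cluster 0 (270 cells) was led by S1pr1, Il7r, Klf3, Tcf7, Cxcr3 and Lef1, genes known from resting and circulating T cells. It was not given a naive name, because the lymph node homing receptor Ccr7 was counted at 196 CPM there and at 820 CPM in cluster 2, and because the inflammatory chemokine receptor Cxcr3 was among its leading genes. Cluster 1 (157 cells) was led by Igkc, Ly6c2, Hspa1b and Cd69, that is by plasma cell and heat shock RNA with an early activation marker. Cluster 2 (155 cells) was led by Penk, the enkephalin precursor, with the chemokine Ccl1, Gzmc, the cytokine Csf2 and Ccr7.

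Cluster 3 (151 cells) was killer-like, led by perforin (Prf1), the chemokines Ccl5 and Ccl3, Eomes, Nkg7 and Tox. Prf1 was at 529 CPM in it and at most 23.7 CPM in clusters 0 to 2, 4 and 5, while Tcf7 was at 6.49 CPM and Il7r at 3.24 CPM. Of its cells 83.4% had at least 2 Cd4 UMIs and 92.7% at least 2 Cd3 UMIs. The gate required RNA of these genes, so the counts are no check of identity. Cluster 4 (147 cells) was Treg-like although no Foxp3 UMI was allowed, led by Klrg1, Il2ra, Il10, Lrrc32, Ctla4 and Ikzf2, with Ctla4 at 3491 CPM. Its salivary gland gene Bpifa2 was counted almost wholly in the combo library. Cluster 5 (39 cells) was Th2-like, with the type 2 cytokines Il5 at 463 CPM, Il13 and Areg, the IL-33 receptor Il1rl1 at 1009 CPM and the transcription factor Gata3 at 596 CPM.

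The clusters held different parts of each library. Cluster 0 was 19.7% (13.0% to 27.8%) of the members with anti-PD-1, 32.8% (26.4% to 39.8%) with anti-LIF and 45.1% (38.6% to 51.7%) with combo, against 16.4% (13.2% to 20.2%) in control. The killer-like cluster 3 was 27.9% (20.1% to 36.7%) with anti-PD-1, 11.9% (7.81% to 17.2%) with anti-LIF and 2.15% (0.700% to 4.94%) with combo, against 19.3% (15.8% to 23.2%) in control. Only 5 cells of the combo library fell in it, against 34 with anti-PD-1, 24 with anti-LIF and 88 in control. The Th2-like cluster 5 held 3, 13 and 17 cells with anti-PD-1, anti-LIF and combo and 6 in control, and the Treg-like cluster 4 held 19, 31 and 40 cells with treatment and 57 in control. Since the genes that define the clusters also differed between libraries, these shares describe the libraries and add nothing to the gene values that follow.

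**Figure D2:**
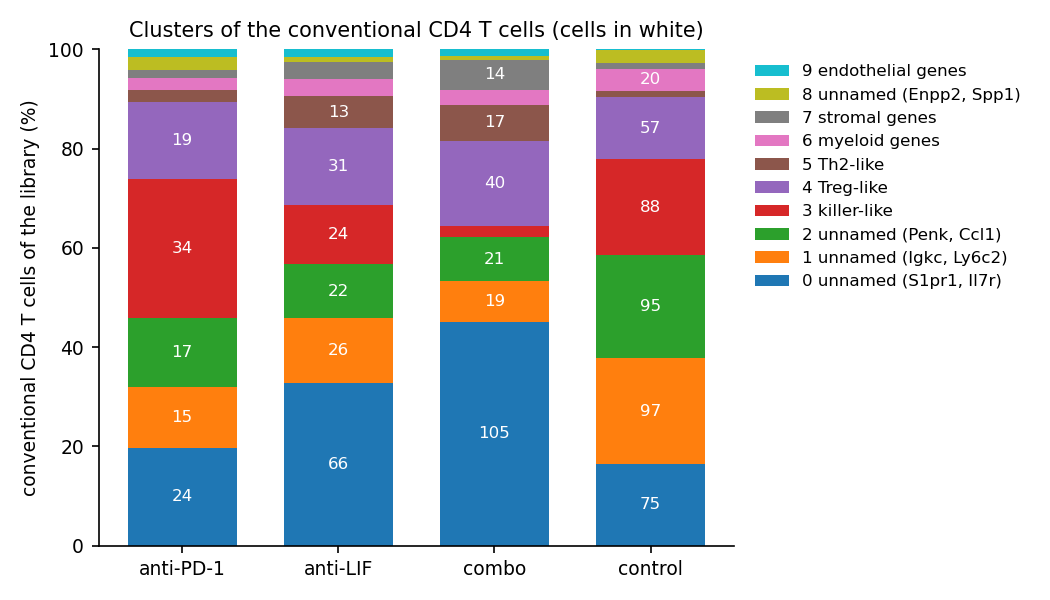
Makeup of the conventional CD4 T cells of each library, in percent of its members, by cluster, with the number of cells printed in white. Cluster 0, led by S1pr1 and Il7r, holds 24, 66 and 105 cells with anti-PD-1, anti-LIF and combo and 75 in control, and the killer-like cluster 3 holds 34, 24 and 5 cells with treatment and 88 in control.

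Genes of circulating and resting T cells were higher in the combo library and, in part, with anti-LIF. S1pr1, the receptor that lets lymphocytes leave tissue along the S1P gradient, was at 261 CPM with anti-PD-1, 320.3 CPM with anti-LIF and 489 CPM with combo, against 167 CPM in control. Its log2 ratio to control was 0.65 (0.22 to 1.06) with anti-PD-1, 0.94 (0.59 to 1.29) with anti-LIF and 1.55 (1.26 to 1.85) with combo. All 3 treated libraries were above control, combo the most, and over clusters 0 to 5 the ratios were 0.44, 1.13 and 1.68. At equal depth, with each cell thinned to 1000 UMIs, S1pr1 had a UMI in 18.4% of 87 cells with anti-PD-1, 29.1% of 134 with anti-LIF and 33.8% of 198 with combo, against 18.5% of 373 in control. On this scale anti-PD-1 lay beside control and the other 2 above it. Macrophages thinned alike had a UMI in 2.58%, 5.31% and 6.57% with treatment and 2.23% in control. Without thinning, 23.0%, 28.4% and 47.6% of members had an S1pr1 UMI with treatment and 20.6% in control; 35, 67 and 35 shallower cells with treatment and 83 in control were left out by thinning.

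Il7r, the IL-7 receptor alpha chain that keeps resting T cells alive, followed the same order. It was at 181, 285 and 352 CPM with anti-PD-1, anti-LIF and combo and at 133 CPM in control, with log2 ratios of 0.45 (-0.06 to 0.92), 1.10 (0.72 to 1.47) and 1.40 (1.07 to 1.74). The anti-PD-1 interval reached below 0, and the anti-LIF and combo intervals did not. Tcf7, the transcription factor TCF-1 of naive and stem-like T cells, was at 159, 278 and 371 CPM with anti-PD-1, anti-LIF and combo and at 178 CPM in control, so that anti-PD-1 lay beside control and combo stood 1.06 above it on the log2 scale (0.75 to 1.36). Klf2, which drives S1pr1, was at 467, 580.5 and 690.0 CPM with treatment and 249 CPM in control. Klf2 is no T cell marker: in CD3-negative cells of the same libraries it was at 471, 425 and 448 CPM with treatment and 397 CPM in control. Ccr7 went the other way in 2 libraries, at 344 CPM with anti-PD-1, 165 CPM with anti-LIF and 173 CPM with combo, against 239 CPM in control.

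Of the 14 naive and memory genes, 13 had at least 20 UMIs in each pair of libraries. In combo 6 of the 13 were past 2-fold higher and none lower, with a median log2 ratio of 0.66, whereas 8.53% of all 7305 genes were past 2-fold higher and 5.82% lower. In clusters 0 to 5 it was 7 of 13, with a median of 1.18, beside 6.60% of 5815 genes higher and 6.04% lower. With anti-LIF 3 of 13 were past 2-fold higher, beside 7.13% of 6980 genes higher and 4.99% lower, with a median of 0.18. In clusters 0 to 5 of that library it was 4 of 12 higher and none lower, beside 5.49% of 5575 genes higher and 5.45% lower, with a median of 0.56. With anti-PD-1 1 of 13 was past 2-fold higher, beside 7.05% of 6680 genes higher and 5.24% lower, with a median of 0.51. In its clusters 0 to 5 none of 12 was past 2-fold in either direction, beside 7.01% of 5432 genes higher and 5.17% lower, with a median of 0.43. Over 10 other settings the median ran over 0.10 to 0.55 with anti-PD-1, -0.020 to 0.93 with anti-LIF and 0.39 to 1.24 with combo. Igfbp4, one of the 6 in combo, was carried by the stromal cluster 7, where it was at 2599 CPM, and in clusters 0 to 5 it was at 19.7, 22.9 and 47.4 CPM with treatment and 19.2 CPM in control.

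The promoter of Il7r is shown because the gene stood out in the anti-LIF and combo libraries and LIF signals to STAT3. It is the 250 bases before the RefSeq start on GRCm38.p6, chr15:9529877-9530126, minus strand, with the single match to the STAT motif TTCNNNGAA in capitals, whose first base lies 142 bases before the start.
Il7r promoter: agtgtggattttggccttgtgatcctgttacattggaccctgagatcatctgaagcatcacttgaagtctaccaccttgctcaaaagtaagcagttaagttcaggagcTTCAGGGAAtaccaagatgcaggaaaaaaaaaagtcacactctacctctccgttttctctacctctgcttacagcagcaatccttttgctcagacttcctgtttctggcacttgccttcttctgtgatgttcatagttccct
The motif, searched on both strands, was in 7.02% of 32851 promoters of this length and in those of 2 of the 11 naive and memory genes with a promoter in the table, Bach2 and Il7r. A match is a run of letters and not a measured binding site.

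Killer cell genes lay far apart between the libraries. Perforin, the pore-forming protein Prf1, was at 449 CPM with anti-PD-1, 12.5 CPM with anti-LIF and 5.53 CPM with combo, against 57.6 CPM in control, from 25, 4 and 3 cells with treatment and 30 cells in control. The log2 ratio was 2.95 (2.49 to 3.45) with anti-PD-1, -2.08 (-3.88 to -0.89) with anti-LIF and -3.17 (-5.70 to -1.76) with combo, the anti-LIF and combo values resting on 5 and 3 UMIs. Thinned to 1000 UMIs, 12.6%, 0.746% and 1.0101% of cells had a Prf1 UMI with anti-PD-1, anti-LIF and combo and 4.83% in control, and at most 0.203% of macrophages did. Anti-PD-1 was thus above control and the 2 libraries with anti-LIF below it under each of the 10 other settings.

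Nkg7, a granule membrane protein of cytotoxic lymphocytes, was at 409, 175 and 71.95 CPM with anti-PD-1, anti-LIF and combo and at 216 CPM in control. Its log2 ratios were 0.93 (0.58 to 1.26), -0.29 (-0.71 to 0.10) and -1.57 (-2.12 to -1.08), of which the anti-LIF interval included 0. Granzyme B, Gzmb, was at 445, 168 and 70.1 CPM with anti-PD-1, anti-LIF and combo and at 264 CPM in control. The anti-PD-1 excess of Gzmb came from 17 cells and turned to a log2 ratio of -0.34 in cells of at most 5000 UMIs, whereas the combo ratio of -1.90 (-2.44 to -1.41) kept its sign in 10 of 10 settings. Eomes, a transcription factor of killer and memory cells, was at 148, 97.6 and 18.4 CPM with anti-PD-1, anti-LIF and combo and at 71.5 CPM in control. Klrd1, the CD94 receptor chain, was at 362, 72.6 and 48.0 CPM with treatment and 213 CPM in control, lower than control in both libraries with anti-LIF.

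The chemokines Ccl5 and Ccl3, which led cluster 3, were lowest with combo. Ccl5, which draws T cells and myeloid cells, was at 1795, 878 and 343 CPM with anti-PD-1, anti-LIF and combo and at 1546 CPM in control, with log2 ratios of 0.22 (0.07 to 0.36), -0.81 (-0.99 to -0.65) and -2.17 (-2.40 to -1.95). Thinned to 1000 UMIs, Ccl5 had a UMI in 40.2%, 21.6% and 15.2% of the cells with treatment and 32.2% in control. Macrophages thinned alike had a Ccl5 UMI in 10.2%, 6.54% and 6.16% with treatment and 21.7% in control, a different order. Ccl3, a chemokine of activated T cells and macrophages, was at 358, 125 and 12.9 CPM with anti-PD-1, anti-LIF and combo and at 369 CPM in control, with 7 UMIs in all of combo. The anti-PD-1 ratio of Ccl5 turned to -0.11 when CD3+ cells were thinned before gating, which gave other members than the thinned shares above. That of Ccl3 lay beside control at -0.04 (-0.38 to 0.28). Ccl1, the chemokine of cluster 2, was lowest with anti-LIF, at 865, 65.1 and 101 CPM with anti-PD-1, anti-LIF and combo and at 145 CPM in control, and its ratios turned under other settings.

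Of 15 cytotoxic effector genes 13 were measured, and none was past 2-fold higher in combo while 8 were lower, with a median log2 ratio of -1.15 and of -1.48 in clusters 0 to 5, beside 8.53% of all genes higher and 5.82% lower. With anti-LIF none was past 2-fold higher and 3 were lower, beside 7.13% and 4.99% of all genes, with a median of -0.30. With anti-PD-1 3 were past 2-fold higher and 1 lower, beside 7.05% and 5.24% of all genes, with a median of 0.76. This median was 0.20 with cells thinned before gating and 0.092 without cells with UMIs of 8 genes of other cells. Gzmc, led by few cells, was at 235, 210.2 and 1.84 CPM with anti-PD-1, anti-LIF and combo and at 199 CPM in control, from 5, 6 and 1 cells with treatment and 14 in control. The 8 genes of natural killer cells summed to 626, 123 and 35.1 CPM with anti-PD-1, anti-LIF and combo and to 180 CPM in control, and these sums include Prf1 and Eomes. Of the 8, Klra4, Klra8 and Klrb1c were at 0 with anti-PD-1, Ncr1, Klre1 and Klra8 with anti-LIF, all 5 of these with combo, and Ncr1 in control. Ncr1, an activating receptor of natural killer cells, was thus counted in the anti-PD-1 library alone, where Prf1 was highest, and the part of such cells in the killer genes was not tested. Within the killer-like cluster 3 the median of 13 cytotoxic genes with anti-PD-1 was 0.71 (34 cells against 88), that of 11 genes with anti-LIF was -0.02 (24 cells) and that of 11 genes with combo was -0.26 (5 cells).

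**Figure D3:**
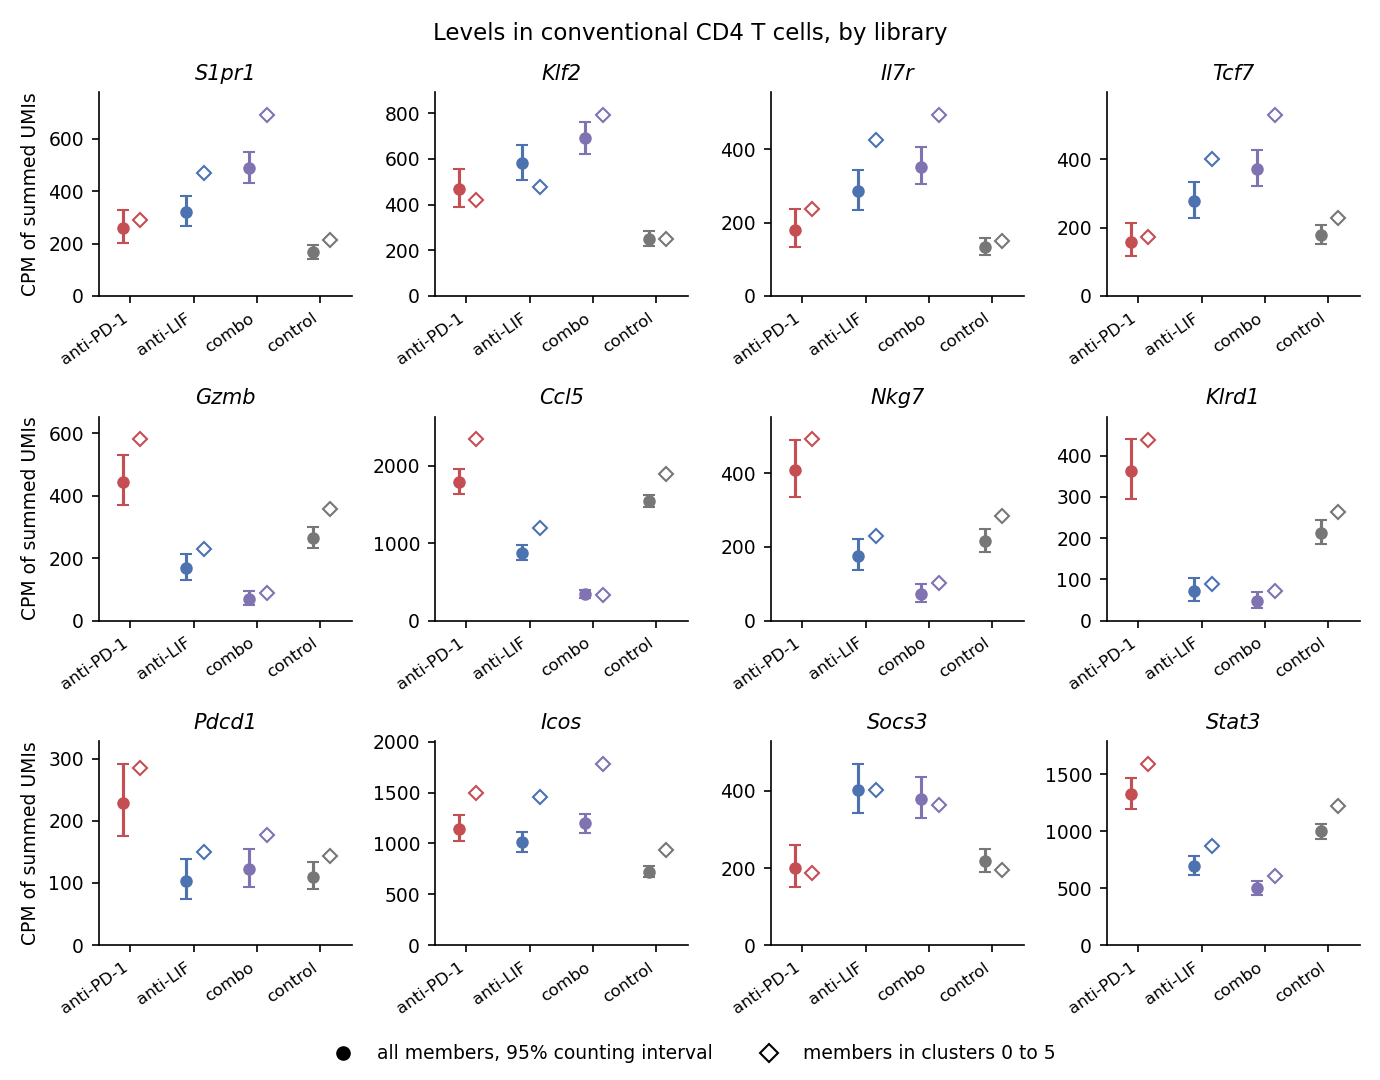
Levels of 12 genes, in CPM of the summed UMIs, in conventional CD4 T cells of the anti-PD-1, anti-LIF, combo and control libraries. Filled circles are all members with the 95% counting interval and open diamonds the cells of clusters 0 to 5; S1pr1, Klf2, Il7r and Tcf7 are highest with combo, and Gzmb, Ccl5, Nkg7 and Klrd1 lowest there.

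Most inhibitory receptors measured were above control with anti-PD-1, and fewer were with the other 2 treatments. Pdcd1, the target of the antibody, was at 228 CPM with anti-PD-1, 103 CPM with anti-LIF and 122 CPM with combo, against 109.9 CPM in control. The log2 ratios were 1.06 (0.58 to 1.52), -0.09 (-0.66 to 0.44) and 0.15 (-0.32 to 0.61). The anti-PD-1 library alone lay beyond counting error, and thinned to 1000 UMIs 16.1%, 11.2% and 10.1% of cells had a Pdcd1 UMI with treatment and 11.3% in control, at most 0.265% in macrophages. Tox, a transcription factor of persistently stimulated T cells, was at 221, 97.6 and 38.7 CPM with anti-PD-1, anti-LIF and combo and at 119.6 CPM in control. Havcr2, which encodes TIM-3, was at 119, 40.0 and 9.22 CPM with treatment and 64.0 CPM in control, the combo value from 5 UMIs. Klrg1, a receptor of differentiated and regulatory T cells, was above control in all 3, at 105, 153 and 113 CPM against 55.5 CPM.

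Over the list of 14 inhibitory receptor genes, 10 were measured with anti-PD-1, of which 3 were past 2-fold higher and none lower, beside 7.05% of all genes higher and 5.24% lower. Their median log2 ratio was 0.90, and 0.20 without cells with UMIs of 8 genes of other cells. With anti-LIF 1 of 9 was past 2-fold higher and none lower (median -0.09), beside 7.13% and 4.99% of all genes. With combo 1 was higher and 2 lower of 9 (median -0.26), beside 8.53% and 5.82% of all genes. Ctla4, the CD28 competitor on activated and regulatory T cells, was at 973, 721 and 841 CPM with anti-PD-1, anti-LIF and combo and at 970.3 CPM in control, which sets anti-PD-1 beside control.

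Costimulatory receptors differed by gene. Icos was at 1143, 1013 and 1197 CPM with anti-PD-1, anti-LIF and combo and at 723 CPM in control, with log2 ratios of 0.66 (0.46 to 0.86), 0.49 (0.31 to 0.67) and 0.73 (0.57 to 0.89). It was above control in all 3 treated libraries, and by 0.68, 0.65 and 0.93 in clusters 0 to 5. Tnfrsf18, the receptor GITR, was at 209.9, 188 and 70.1 CPM with anti-PD-1, anti-LIF and combo and at 76.9 CPM in control, and the combo ratio of -0.12 (-0.74 to 0.45) included 0 while those of both single antibodies, 1.45 (0.92 to 1.97) and 1.29 (0.80 to 1.77), did not. Tnfrsf9, the receptor 4-1BB, was at 810.5, 548 and 289.7 CPM with treatment and 511 CPM in control. Cd69, an early activation marker that opposes S1pr1 at the membrane, was lower than control in all 3, at 152, 198 and 208 CPM against 341 CPM. Without cells with UMIs of 8 genes of other cells the anti-LIF log2 ratio of Cd69 was 0.058. Of 22 activation and costimulation genes, 1 of 21 measured was past 2-fold higher and 2 lower with anti-PD-1, beside 7.05% and 5.24% of all genes. It was 3 of 22 higher and none lower with anti-LIF, beside 7.13% and 4.99%, and 3 higher and 1 lower of 22 with combo, beside 8.53% and 5.82%. These counts lay near the shares of all genes, and the medians were 0.36, 0.51 and 0.27.

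The pathway of LIF itself was uneven. Stat3, the transcription factor at its end, was at 1328 CPM with anti-PD-1, 693 CPM with anti-LIF and 499.99 CPM with combo, against 998 CPM in control, with log2 ratios of 0.41 (0.23 to 0.59), -0.52 (-0.72 to -0.33) and -0.995 (-1.20 to -0.80). Both libraries with anti-LIF were below control and the anti-PD-1 library above it, in 10 of 10 settings for each. Socs3, the feedback inhibitor of the shared receptor chain and a STAT3 target, was at 199, 403 and 380.1 CPM with anti-PD-1, anti-LIF and combo and at 218 CPM in control. Its ratios of -0.12 (-0.59 to 0.31), 0.89 (0.58 to 1.19) and 0.80 (0.52 to 1.09) put both libraries with anti-LIF above control. In CD3-negative cells Socs3 was at 403, 411 and 419 CPM with treatment and 335 CPM in control.

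Pim1, a kinase induced by STAT3 and STAT5, was at 890.1, 1509 and 1688 CPM with anti-PD-1, anti-LIF and combo and at 1193 CPM in control. Bcl3, an atypical NF-kB inhibitor family member, was at 83.2, 113 and 138 CPM with treatment and 52.3 CPM in control. Il6st, the signal chain gp130, was at 119, 180.1 and 131 CPM with treatment and 50.2 CPM in control, and at 59.1, 65.0 and 59.2 CPM against 32.5 CPM once clusters 6 to 9 were left out, so that much of its RNA was in those clusters. Of 16 genes of IL-6 family receptors and STAT3 feedback, 4 of 15 measured were past 2-fold higher with anti-LIF (7.13% of all genes) and 4 of 15 with combo (8.53%), none lower, with medians of 0.29 and 0.50. With anti-PD-1 2 of 14 were past 2-fold higher (7.05% of all genes) and none lower, with a median of 0.16. In clusters 0 to 5 it was 1 of 12 higher with anti-PD-1, 2 of 12 with anti-LIF and 2 of 13 with combo, where 1 was lower, beside 7.01%, 5.49% and 6.60% of all genes higher and 6.04% lower with combo. Lifr, the receptor chain of LIF, was at 0 in clusters 0 to 5 of all 4 libraries.

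The Socs3 promoter is printed because Socs3 was higher while Stat3 was lower in the same cells. It is chr11:117969367-117969616 on GRCm38.p6, minus strand, with its 1 match to TTCNNNGAA in capitals, first base 154 bases before the RefSeq start.
Socs3 promoter: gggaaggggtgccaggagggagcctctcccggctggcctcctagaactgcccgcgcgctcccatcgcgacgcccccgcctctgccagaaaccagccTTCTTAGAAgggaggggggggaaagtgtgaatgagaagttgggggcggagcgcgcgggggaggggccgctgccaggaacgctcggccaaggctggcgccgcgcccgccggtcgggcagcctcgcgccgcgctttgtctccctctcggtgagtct
Socs3 was the 1 gene with this motif among the 14 of the IL-6 family list that have a promoter in the table. This lies near the 7.02% of all 32851 promoters that held it.

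Part of the type I interferon response genes were above control with combo. Ifit1, an antiviral protein that binds foreign RNA, was at 28.9 CPM with anti-PD-1, 153 CPM with anti-LIF and 199 CPM with combo, against 25.6 CPM in control, and at 29.6, 99.4 and 166 CPM against 29.5 CPM in clusters 0 to 5. Its log2 ratios were 0.23 (-1.19 to 1.38), 2.56 (1.87 to 3.32) and 2.94 (2.31 to 3.66), and the UMIs came from 5, 23 and 21 cells with treatment and 21 cells in control. Anti-LIF and combo were above control and anti-PD-1 was beside it, while in CD3-negative cells Ifit1 was at 52.6, 57.9 and 68.3 CPM with treatment and 82.4 CPM in control, where control was highest. Of 22 genes, 8 of 16 measured were past 2-fold higher with combo and none lower (median 1.06), beside 8.53% and 5.82% of all genes. With anti-LIF it was 3 of 14 (median 0.59) beside 7.13% of all genes, and with anti-PD-1 1 of 13 (median 0.23) beside 7.05%. In clusters 0 to 5 it was 6 of 14 with combo, beside 6.60% of all genes, with a median of 0.74. The combo median was 0.28 without cells with UMIs of 8 genes of other cells, and over 10 other settings the median ran over -0.21 to 0.41 with anti-PD-1 and -0.031 to 0.62 with anti-LIF. Bst2, tetherin, was at 79.6, 70.1 and 125 CPM with treatment and 63.0 CPM in control. Ifi27l2a was higher in all 3, at 365, 458 and 426 CPM against 259 CPM, and likewise in CD3-negative cells, at 122, 235 and 189 CPM against 29.4 CPM.

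The Ifit1 promoter is shown for its matches to the letters of the interferon-stimulated response element. The region is chr19:34640639-34640888 on GRCm38.p6, plus strand; the capitals are 2 matches, read on the other strand, to GAAA followed by any 2 bases and GAAA again, with first bases 104 and 85 bases before the start.
Ifit1 promoter: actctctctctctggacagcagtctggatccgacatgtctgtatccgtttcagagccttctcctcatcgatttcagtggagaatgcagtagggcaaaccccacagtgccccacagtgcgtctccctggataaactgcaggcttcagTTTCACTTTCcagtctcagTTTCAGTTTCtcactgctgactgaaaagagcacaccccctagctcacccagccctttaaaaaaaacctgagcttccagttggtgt
The motif was in 2.98% of all 32851 promoters. It was in those of 10 of the 17 type I interferon response genes found in the table, among them Bst2, Isg15, Rsad2 and Ifit3.

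Helper lineage genes were sparse. Ifng, the Th1 cytokine interferon gamma, was at 239, 108 and 48.0 CPM with anti-PD-1, anti-LIF and combo and at 125 CPM in control, with log2 ratios of 0.94 (0.48 to 1.38), -0.20 (-0.75 to 0.30) and -1.36 (-2.05 to -0.76). It was thus above control with anti-PD-1 and below it with combo. Its transcription factor Tbx21 was at 61.5, 37.5 and 23.98 CPM with treatment and 38.4 CPM in control, and all 3 intervals of its ratio included 0. The receptor Cxcr3, by contrast, was at 105, 128 and 137 CPM with treatment and 70.5 CPM in control, highest with combo. Of 18 Th1 genes measured, 2 were past 2-fold higher and 1 lower with anti-PD-1, beside 7.05% and 5.24% of all genes, and none higher and 2 lower with anti-LIF, beside 7.13% and 4.99%. With combo none was higher and 5 were lower, beside 8.53% and 5.82%. In clusters 0 to 5 of combo 2 were higher and 5 lower, beside 6.60% and 6.04% of all genes. The medians were 0.17, -0.09 and -0.50 with anti-PD-1, anti-LIF and combo, and the anti-PD-1 and anti-LIF counts lay near the shares of all genes.

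The Th2 genes with at least 20 UMIs were few, 4 with each single antibody and 5 with combo out of 13. Il1rl1, the IL-33 receptor ST2, was at 21.7, 155 and 118 CPM with anti-PD-1, anti-LIF and combo and at 40.6 CPM in control, from 3, 34 and 27 cells with treatment and 20 in control. Its ratio was 1.93 (1.33 to 2.56) with anti-LIF and 1.53 (0.94 to 2.16) with combo, against -0.81 (-2.44 to 0.35) with anti-PD-1, and the first 2 kept their sign in 10 of 10 settings. Gata3, the Th2 transcription factor, was at 61.5, 135 and 173 CPM with treatment and 106 CPM in control. Its combo ratio of 0.72 (0.29 to 1.14) lay beyond counting error. The Th2 medians were 0.04, 0.62 and 0.72 with anti-PD-1, anti-LIF and combo, and the combo median was 0.064 without cells with UMIs of 8 genes of other cells. Il17a, the Th17 cytokine, was counted in 2, 3 and 5 cells with treatment and 2 in control. Slamf6, an adhesion receptor of T follicular helper and stem-like T cells, was at 28.9, 77.6 and 79.3 CPM with treatment and 34.2 CPM in control, so that both libraries with anti-LIF were above control. The Tfh medians over 7 genes were -0.0045, 0.69 and 0.07 with anti-PD-1, anti-LIF and combo, and the Th17 medians over 3, 4 and 5 genes were -0.40, 0.64 and 0.77. In clusters 0 to 5 the Th17 medians over 3, 3 and 4 genes were 0.60, 0.89 and 1.29, so the anti-PD-1 median changed sign.

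The medians of 7 further lists of T cell, stress and metabolic genes lay between -0.56 and 0.48. The 18 genes of the T cell receptor complex and its proximal signalling had medians of 0.20, 0.17 and 0.02 with anti-PD-1, anti-LIF and combo, with 1 past 2-fold, the lower Trbc1 with anti-PD-1, at 145, 488 and 458 CPM with treatment and 449 CPM in control. The 22 measured interferon gamma response and MHC class I genes had medians of -0.01, 0.07 and -0.19, with 1 past 2-fold higher with each single antibody and none with combo. The homing and adhesion receptors had medians of 0.21, 0.39 and 0.27, the common gamma chain receptors 0.42, 0.34 and 0.26, and the Treg-associated genes other than Foxp3 had 0.32, 0.28 and -0.21. The 15 dissociation stress genes had medians of -0.05, 0.48 and 0.42, above 0 in both libraries with anti-LIF, and their part in the values above was not tested. The 15 glycolysis and hypoxia genes had medians of -0.14, -0.12 and -0.56, with 4, 1 and 1 past 2-fold lower and none higher. Of all genes 5.24%, 4.99% and 5.82% were past 2-fold lower and 7.05%, 7.13% and 8.53% higher. In clusters 0 to 5 the glycolysis and hypoxia medians over 14, 15 and 15 genes were -0.05, -0.09 and -0.20. There 1 gene was past 2-fold lower in each comparison, beside 5.17%, 5.45% and 6.04% of all genes. With anti-LIF 1 was also higher, beside 5.49%.

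**Figure D4:**
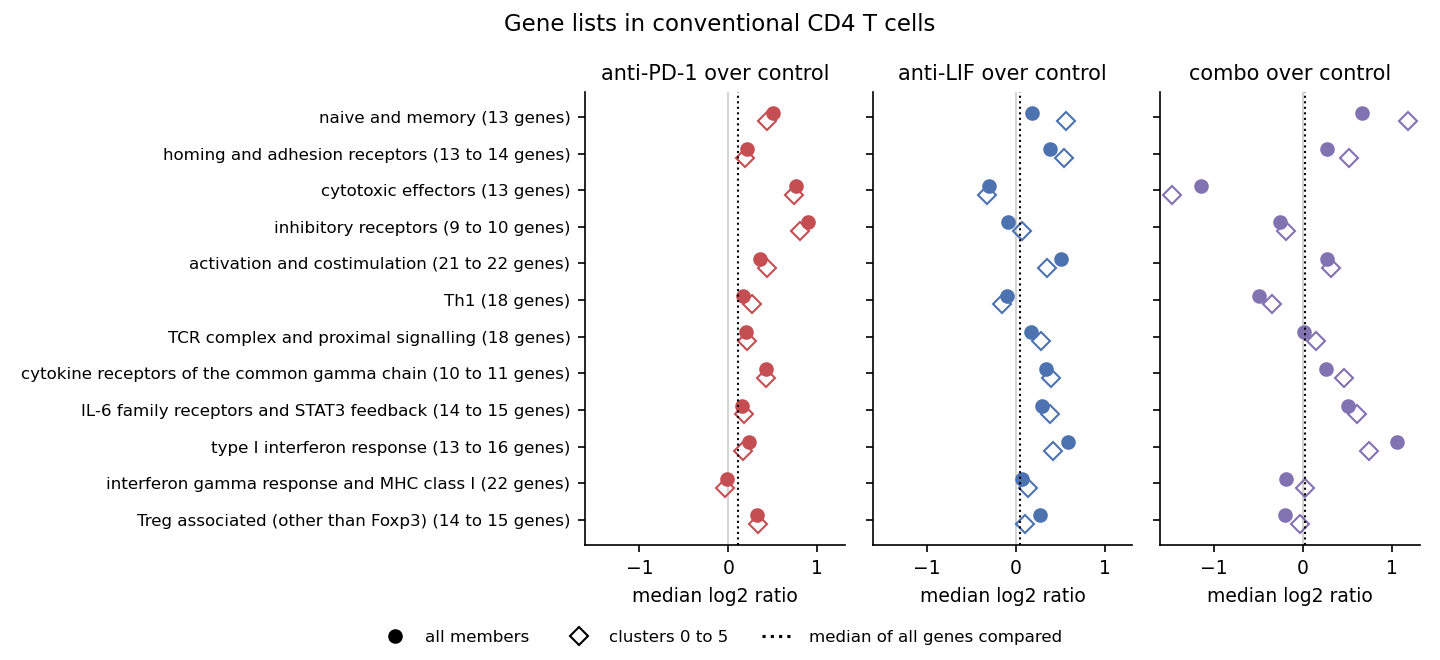
Median log2 ratio to control of 12 gene lists in conventional CD4 T cells, 1 panel each for anti-PD-1, anti-LIF and combo, with circles for all members, diamonds for clusters 0 to 5 and a dotted line at the median of all measured genes. In combo the naive and memory median is 0.66 and the cytotoxic median -1.15, and in clusters 0 to 5 they are 1.18 and -1.48.

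The genes farthest from control by their counting interval were mostly not T cell genes. With anti-PD-1 the highest were Ubd, all 60 UMIs of which came from 1 cell, and the endothelial Cdh5 with 25 UMIs in 4 cells and none in control, at least 28.2-fold higher by the 3-UMI floor of the control library. With anti-LIF the macrophage elastase Mmp12 had 60 UMIs in 3 cells against 1 in control, and the stromal gene Ptx3 had 362 UMIs in 5 cells against 65 UMIs. With combo the salivary gland genes Bpifa2 and Amy1 had 1820 and 326 UMIs and none in control, and Bpifa2 was at 6335 CPM in CD3-negative cells of the same library, more than the 3358 CPM of the conventional CD4 T cells. Among the lowest were the effector genes Gzmc, Ccl3, Xcl1 and the small GTPase Rasd2 with combo. Rasd2 was at 21.7, 37.5 and 1.84 CPM with anti-PD-1, anti-LIF and combo and at 60.8 CPM in control, and in CD3-negative cells at no more than 1.09 CPM in any library.

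Other low genes named by the same rule were T cell genes in part. Tiparp, a poly-ADP-ribose polymerase induced by the aryl hydrocarbon receptor, was lower than control in all 3, at 47.0, 55.0 and 97.8 CPM against 252 CPM, from 137 control cells. In CD3-negative cells Tiparp was at 140.0, 89.8 and 108 CPM against 246 CPM, so that other cells too were highest in control. Ly6c2, a surface antigen of monocytes and memory T cells, was at 21.7, 72.6 and 88.6 CPM with treatment and 202 CPM in control. Immunoglobulin RNA set the control library apart, since the 9 B and plasma cell genes summed to 94.1, 115 and 137 CPM with anti-PD-1, anti-LIF and combo and to 5177 CPM in control, while the B cell genes Ms4a1 and Pax5 were at 0 in all 4 libraries.

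The comparison that the libraries do replicate is that of cell types, since each library holds conventional CD4 T cells, Treg and CD8 T cells. UMIs were summed per library and cell type, gate genes were left out, and edgeR's quasi-likelihood test was run over 4 pairs of sums with the library as a block. The p-values measure the spread between these 4 libraries, which also differ in treatment. Against Treg, 53 of 4295 genes tested were higher in conventional CD4 T cells (1.23%) and 99 lower (2.31%) at a Benjamini-Hochberg adjusted p of 0.05. The counts rest on the libraries used, since without control 10 were higher and 17 lower, and without anti-PD-1 128 were higher and 130 lower; they were 30 and 41 without anti-LIF and 21 and 39 without combo.

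Conventional CD4 T cells exceeded Treg in genes of resting cells and of effector cytokines. Tcf7 was at 159, 278, 371 and 178 CPM in the conventional CD4 T cells of the anti-PD-1, anti-LIF, combo and control libraries, against 17.0, 8.12, 38.8 and 3.75 CPM in Treg, a log2 fold change of 3.86 ± 0.34 (SE) with an edgeR adjusted p of 0.00322. The 2 sets of values did not overlap. Ifng was at 239, 108, 48.0 and 125 CPM against 0 CPM in Treg of 3 libraries and 30.0 CPM in control Treg, with an edgeR adjusted p of 0.0259. Tnfsf8, the CD30 ligand, was 3.19 ± 0.30 higher (edgeR adjusted p 0.00322) and Fasl, which kills through Fas, 3.16 ± 0.46 (edgeR adjusted p 0.0113). The rule that named both genes required the same direction in 4 of 4 libraries. S1pr1 was 1.69 ± 0.35 higher (edgeR adjusted p 0.0414), in 4 of 4 libraries. Dpt, a fibroblast matrix gene, was also called higher, at 3.97 ± 0.76.

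Lower in conventional CD4 T cells were the genes known for Treg. Il2ra, the high-affinity IL-2 receptor chain, was at 159, 145, 140.2 and 115 CPM against 697, 861, 1094 and 559 CPM in Treg, a log2 fold change of -2.47 ± 0.16 (edgeR adjusted p 0.0016). Of the 14 Treg-associated genes tested 12 were lower and none higher, with a median log2 fold change of -1.69 beside 0.00 over all genes. They included Ikzf2 (Helios) at -1.75 ± 0.27, Ctla4 at -1.28 ± 0.13 and Lrrc32, which holds latent TGF-beta, at -2.09 ± 0.23. Il10 and the integrin Itgae stood at -2.56 ± 0.39 and -2.47 ± 0.26, and the IL-33 receptor Il1rl1 at -1.78 ± 0.29. Each was lower in 4 of 4 libraries, which the rule that named Il10 and Itgae required. Foxp3, whose RNA set the gate, is known to go with these genes, so the choice of cells bears on their direction. Of 11 naive and memory genes tested 4 were higher (Tcf7, S1pr1, Satb1 and Klf3) and 2 lower, among them Cd27, a costimulatory receptor, at -0.90 ± 0.17. None of the 12 genes tested of the IL-6 family list and none of 11 type I interferon response genes passed the test. Stat3 stood at -0.14 ± 0.25 and Socs3 at 0.50 ± 0.26.

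Against CD8 T cells, 172 of 7929 genes tested were higher in conventional CD4 T cells (2.17%) and 110 lower (1.39%). Leaving out 1 library gave 116 to 164 higher and 56 to 101 lower, the lowest number of lower genes without anti-LIF and 72 without combo. Tnfsf8 was at 159, 355, 271 and 257 CPM in conventional CD4 T cells, against 10.48, 19.1, 17.6 and 8.56 CPM in CD8 T cells, a log2 fold change of 4.35 ± 0.20 with an edgeR adjusted p of 1.5e-06. No value of one cell type reached the other's. The costimulatory receptor Tnfrsf4 (OX40) was 3.02 ± 0.16 higher, the folate receptor family member Izumo1r 2.71 ± 0.21, the transcription factor Maf 2.59 ± 0.19 and Penk 3.45 ± 0.30. The rule that named these genes required the same direction in 4 of 4 libraries. S1pr1 was 1.84 ± 0.16 higher (edgeR adjusted p 0.000116), Il7r 1.13 ± 0.13 (edgeR adjusted p 0.000621) and Tcf7 1.12 ± 0.13 (edgeR adjusted p 0.000517).

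By list, 6 of 13 naive and memory genes tested were higher and none lower against CD8 T cells. All 4 Th2 genes tested were higher: Gata3 at 1.47 ± 0.20, Il1rl1 at 2.58 ± 0.28, Areg at 2.08 ± 0.29 and Ccl1 at 3.10 ± 0.66, the last in 3 of 4 libraries. Of 15 cytotoxic genes 7 were lower and none higher, with a median of -1.23 beside -0.01 over all genes. Among them were Nkg7 at -1.29 ± 0.26, Ctsw at -1.81 ± 0.23, Klrk1 (NKG2D) at -2.05 ± 0.24 and Klrd1 at -1.63 ± 0.35, while Gzmb at -0.61 ± 0.19 and Prf1 at -1.23 ± 0.54 did not pass. Against CD8 T cells 8 of 14 Treg-associated genes were higher, Il2ra by 1.79 ± 0.17 and Tnfrsf18 by 1.56 ± 0.14 among them, and 3 of 7 Tfh genes, Slamf6, Izumo1r and Btla. Of 15 genes of the IL-6 family list 3 were higher, the kinases Jak2 at 1.25 ± 0.14 and Pim1 at 0.86 ± 0.08 and the STAT5-induced inhibitor Cish at 0.61 ± 0.11.

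**Figure D5:**
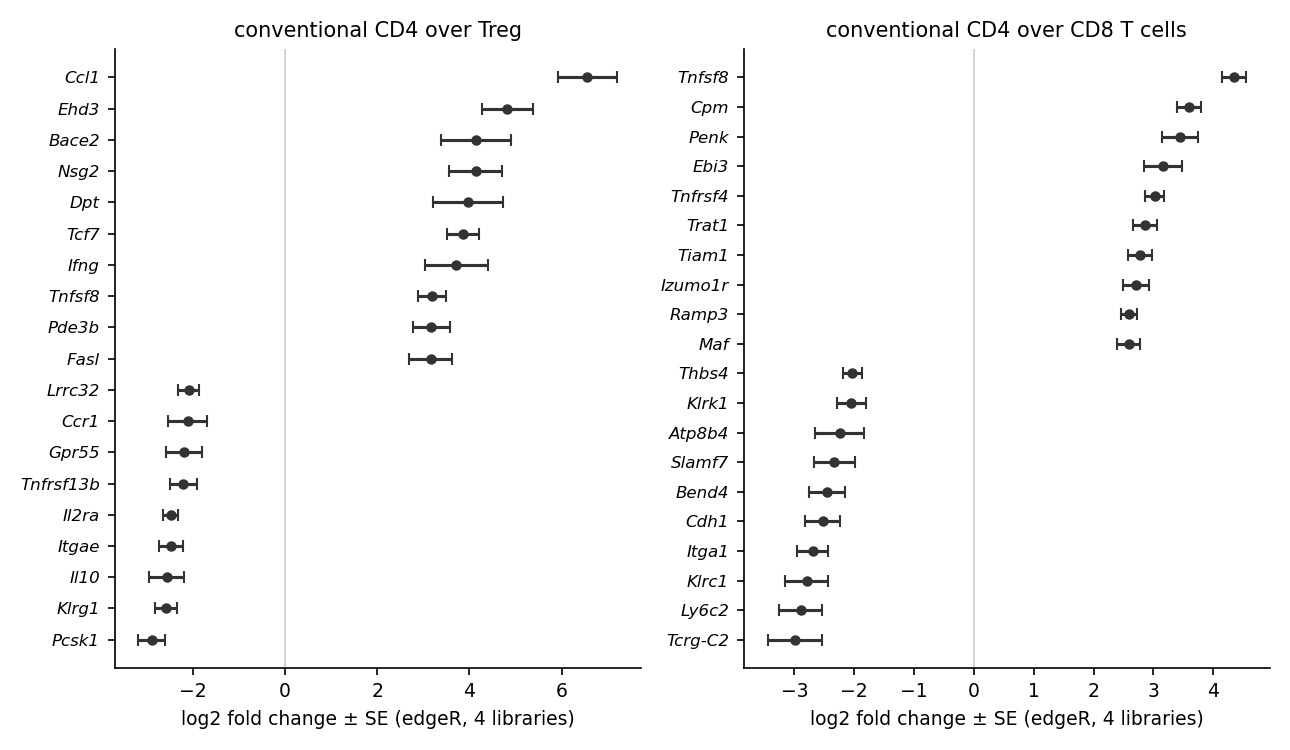
Log2 fold change with its standard error of conventional CD4 T cells over Treg (left) and over CD8 T cells (right), for the highest and lowest named genes of each edgeR comparison over 4 libraries. Positive values are higher in conventional CD4 T cells; Tnfsf8 is high in both panels, and Il2ra, Klrg1 and Il10 are among the lowest against Treg.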

How the data were processed

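Single-cell RNA was measured in 4 libraries of Pan02 tumours, made with a SeekOne MM 3' kit per the labels' protocols, 1 library per treatment. The authors deposited raw UMI counts per gene and barcode. Per the submitters' processing notes Seurat 4.0.3 and the mm10 build were used; the aligner is not given in the sources used here. Which library was sequenced on which platform is not given either, so platform and treatment cannot be told apart.

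From the counts, cells were gated as the report states, in Python 3.11.15 with scipy 1.17.1, and the UMIs of the conventional CD4 T cells were summed per library. Between treatments, log2 ratios of CPM were taken with 0.5 counts added, over genes with at least 20 UMIs in the pair, with exact conditional 95% intervals; a gene was counted past 2-fold beyond a log2 ratio of 1. Shares have exact Clopper-Pearson intervals. Both cover counting error only, and the UMIs of 1 library bound the precision. To compare detection, cells already gated were thinned to 1000 UMIs. For ratios, medians, gene counts and edgeR fits called thinned, all CD3+ cells were thinned first and then gated, so their members differed. States are Leiden clusters (scanpy 1.11.5, 1500 variable genes, 20 components, 15 neighbours, resolution 0.8). Doublets were not removed.

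Cell types were compared by edgeR 4.0.16 quasi-likelihood fits on 8 sums with the library as block, TMM and filterByExpr, adjusted over all genes tested. The standard errors were worked back from the log2 fold change and the quasi-likelihood F statistic and are approximate. On simulated counts the step recovered 50.6% of 2-fold and 100% of 4-fold changes against Treg, and 79.6% and 100% against CD8 T cells. The simulation gave all genes the same spread and let libraries differ only in size, so these rates hold for that setting only. DESeq2 1.42.0 and other settings were tried. Named genes are the 10 farthest each way by their counting interval, the 10 highest and 10 lowest of each edgeR comparison that agree in 4 of 4 libraries at a mean of at least 20 CPM, defining members of described lists and markers of clusters. 1 gene that this rule names against Treg is not reported here. Members, lists and tests were chosen with earlier results of these data known. Promoters are from RefSeq, build GRCm38.p6.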

Additional observations from a re-analysis of the deposited data

How the results depend on the processing

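No paired analysis was possible because each group is 1 library; the libraries pair only the cell types, and without that block the genes higher and lower against CD8 T cells were 71 and 34. Of the values for single genes 1456 stayed within the counting interval of the value reported, 224 left it, and 26 of those with an interval on one side of 0 changed sign. Depth limits most genes to a few UMIs per library, and no setting replaces a second library. The cause of each shift was not tested.

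In another setting members with UMIs of 8 genes of other cell types were left out, while the denominators of the shares stayed unfiltered. The log2 ratio of the share among kept cells was then -1.33 with anti-LIF and -1.88 with combo. That of the share among CD3+ non-dividing cells was 0.81 and 0.11. With at most 10% mitochondrial UMIs the shares among kept cells were -1.16 and -1.02. The number of genes measured changed with the setting, so the share of them past 2-fold is given in brackets. Genes past 2-fold higher, anti-PD-1 over control, were 471 (7.05%) over all members. They numbered 246 (7.96%) with CD3+ cells thinned to 1000 UMIs before gating and 218 (7.02%) without cells with those 8 genes. With no low count filter they were 2595 (19.0%), and with at least 50 UMIs 132 (3.58%). Genes past 2-fold lower, anti-PD-1 over control, were 350 (5.24%) over all members, 549 (8.22%) by the mean over cells and 200 (6.47%) thinned. They were 1356 (9.93%) with no filter, 144 (3.91%) with at least 50 UMIs and 211 (3.16%) where the interval also lay beyond 0. Genes past 2-fold higher, anti-LIF over control, were 498 (7.13%) over all members. They numbered 214 (6.55%) thinned, 226 (7.25%) without the 8 genes, 306 (5.49%) without clusters 6 to 9 and 326 (5.63%) at no more than 5000 UMIs. With no filter they were 2672 (19.2%), and with at least 50 UMIs 189 (4.76%). Genes past 2-fold lower, anti-LIF over control, were 348 (4.99%) over all members, 547 (7.84%) by the mean over cells and 206 (6.30%) thinned. They were 1498 (10.8%) with no filter, 120 (3.02%) with at least 50 UMIs and 228 (3.27%) with the interval beyond 0. Genes past 2-fold higher, combo over control, numbered 274, 247, 384, 344, 2599 and 269 under the same 6 settings as for anti-LIF. Genes past 2-fold lower, combo over control, were 425 (5.82%) over all members, 208 (5.82%) thinned and 279 (9.04%) without the 8 genes. They were 1510 (10.6%) with no filter and 155 (3.60%) with at least 50 UMIs.

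The median log2 ratio of cytotoxic effectors, anti-PD-1 over control, was 0.20 thinned and 0.092 without the 8 genes. The median log2 ratio of Th2, anti-PD-1 over control, was 0.88 thinned; the median log2 ratio of Th2, combo over control, was 1.32 with at most 10% mitochondrial UMIs, 1.33 without cells with Il2ra or Ikzf2 UMIs and 0.064 without the 8 genes. The cluster led by S1pr1 and Il7r held 34.4%, 47.8% and 55.8% of members with anti-PD-1, anti-LIF and combo and 36.8% in control at resolution 0.5, and 12.3%, 23.9% and 32.6% against 5.26% with seed 1.

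Of the log2 ratios to control whose interval lay on one side of 0, these turned with anti-PD-1: S1pr1 to -0.040, Ccl5 to -0.11 and Gata3 to 0.35 thinned; Ccl5 to -0.11, Ifi27l2a to -0.30 and C3 to 0.13 with at most 10% mitochondrial UMIs; Gzmb to -0.044 by the mean over cells; Gzmb to -0.34 and Xcl1 to -1.79 at no more than 5000 UMIs; Gzmb to -1.39, Xcl1 to -1.38 and Ccl1 to -1.11 without the 8 genes; and Xcl1 to -1.76 without Il2ra or Ikzf2 UMIs. With anti-LIF Tcf7 turned to -0.051 and Ccl1 to 0.29 with at most 10% mitochondrial UMIs, Penk to 0.16 thinned, Bcl3 to -0.091 and Cd69 to 0.058 without the 8 genes, and Gzmb to 0.020, Penk to 0.56 and Ccl1 to 0.86 without Il2ra or Ikzf2 UMIs. With combo Lef1 turned to -0.085 and Ctla4 to 0.13 thinned, Klf3 to -0.86 without the 8 genes, and Ccl1 to 1.40 with at most 10% mitochondrial UMIs and to 1.96 without Il2ra or Ikzf2 UMIs. Ratios whose interval included 0 changed sign too, among them, with anti-PD-1, Ccl3 to 0.89 with at most 10% mitochondrial UMIs and Socs3 to 0.88 thinned. With anti-LIF Ccl4 went to -2.38 and Xcl1 to 1.10 thinned, Ifng to 0.37 without Il2ra or Ikzf2 UMIs and Pdcd1 to 0.29 by the mean over cells, and with combo Areg went to -1.13 without the 8 genes.

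Leaving out 1 library gave 10 to 128 genes higher and 17 to 130 lower against Treg, and 116 to 164 higher and 56 to 101 lower against CD8 T cells. Genes higher and lower against Treg were 393 and 198 with no filter and 219 and 227 at no more than 5000 UMIs, and 82 were higher thinned. These were in part other genes. Of the 53 called higher and 99 called lower, 13 and 49 were still called thinned. The numbers still called were 19 and 44 without the 8 genes, 39 and 90 at no more than 5000 UMIs, and all of them with no filter. The genes tested were 1000 thinned, 1189 without the 8 genes, 3419 at no more than 5000 UMIs and 15343 with no filter. The main fit tested 4295, so a gene no longer called may not have been tested. Against CD8 T cells 400 were higher and 262 lower at no more than 5000 UMIs, 322 lower with no filter and 167 lower thinned. These fits tested 6671, 18106 and 4136 genes in that order, beside 7929 in the main fit. By DESeq2 61 were higher and 80 lower against Treg, and 141 and 83 against CD8 T cells.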

Other observations

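Some genes outside the described groups stood out among the 1012 cells. Penk, the precursor of enkephalin peptides, was at 1147, 543 and 225 CPM with anti-PD-1, anti-LIF and combo and at 651 CPM in control, from 19, 29 and 17 cells with treatment and 58 cells in control, so that few cells carried it in every library. Cxcr6, the receptor that holds T cells near Cxcl16, was at 441, 260.2 and 238 CPM with treatment and 221 CPM in control, with a log2 ratio of 1.00 (0.66 to 1.33) with anti-PD-1. Thinned to 1000 UMIs, 32.2%, 21.6% and 18.2% of cells had a Cxcr6 UMI with treatment and 22.5% in control, against at most 0.609% of macrophages. Il2rb, the IL-2 and IL-15 receptor beta chain, was at 1672, 868 and 690.0 CPM with treatment and 1062 CPM in control, above control with anti-PD-1 and below it in both libraries with anti-LIF. Rora, a nuclear receptor of type 2 and Th17 cells, was at 326, 548 and 616 CPM with treatment and 430.2 CPM in control, in the opposite order. These genes were chosen after their values were seen.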
